A study of Mus musculus with 283 samples.

Results

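The genes described here encode subunits and assembly factors of complexes I, II, III and V of the mitochondrial respiratory chain. They were chosen by name: a gene was a member if a probe set of the array named it alone and its symbol began with Ndufa, Ndufb, Ndufc, Ndufs, Ndufv, Sdh, Uqcr or Atp5. This gave 63 members of 15224 genes measured. They are 31 genes with complex I subunit names, 6 complex I assembly factors (Ndufaf1, Ndufaf2, Ndufaf3, Ndufaf4, Ndufaf5 and Ndufaf7), 4 complex II subunits, 2 complex II assembly factors (Sdhaf2 and Sdhaf4), 8 complex III subunits and 12 complex V subunits. The rule used no expression value. Another 13 probe sets carry a member's symbol together with that of another gene and were left out.

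Complexes I and II pass electrons from NADH and succinate to ubiquinone, complex III hands them on to cytochrome c, and complex IV passes them to oxygen. The protons that complexes I, III and IV move across the inner mitochondrial membrane drive complex V, the ATP synthase. Complex II is also an enzyme of the citric acid cycle, and Ndufa4, named as a complex I subunit, is now regarded as a subunit of complex IV. Tumour cells often take up much glucose and release lactate, yet most cultured tumour lines keep a working respiratory chain.

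RNA was measured on 283 Affymetrix exon arrays of mouse tissue and cultured cells, with values on a log2 scale. Transplanted tumours of the host's own strain came from 15 models. BALB/c females carried 4T1 (mammary), CT26 (colon) or Renca (kidney) tumours, DBA/2J females carried P815 mastocytoma, and C57Bl6j males carried the prostate lines TRAMPC1 or TRAMPC2. C57Bl6j females carried B16F0 melanoma from ATCC or ECACC, its subline B16F10 from ATCC or NCI, LL2 (lung), MC38 (colon), EL4 (lymphoma), TC1 or PAN02 (pancreas). PAN02 cells were placed in the pancreas and have no node arrays, and the other lines were grown subcutaneously on the back. There were 77 tumours, 72 draining lymph nodes and 78 spleens from these mice, 20 nodes and 20 spleens from mice of the same 4 kinds of host without tumours, and 16 cultures. Most groups held 5 mice. Every line was cultured once, so a culture has no replicate of its own. TC1 has no culture array, and the cultured lines Hepa1-6 and ID8 have no tumours. The 4 B16 stocks were treated as 1 family and the TRAMP-C lines as another, which leaves 11 tumour families, 10 of them with a culture.

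Some node arrays go against their label. In 8 nodes the mean of the B cell markers was under 7, against 7.69 to 8.87 in the 83 usual nodes. Of these 8, the 6 from tumour-bearing mice (1 of 4T1, 2 of CT26 and 3 of Renca) correlated at 0.949 to 0.977 with a tumour of their own model and at 0.892 at most with any usual node. In 3 nodes Ucp1, the uncoupling protein of brown fat, lay above 7.5, and 2 of these were also low in B cell markers. Counts of called members, and fold changes of the members named, are given for nodes with and without these 9 arrays while marker counts and levels by tissue use all nodes. In 16 tumours the markers of skeletal muscle, skin, pancreatic acini or fat averaged above 7.

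The members were among the stronger signals. Their means over all arrays ran from 5.29 to 10.44 with a median of 8.10, against 5.38 for all genes, and 61 of the 63 lay above the 25th percentile of all values on every array. On each array the median of the 63 members summarises their level. It was highest in cultures, at 8.97 to 9.60 with a median of 9.22, and next in tumours, at 7.73 to 9.00 with a median of 8.37. Draining nodes ran from 7.37 to 8.67 around 7.81, and spleens of the same mice from 6.95 to 8.59 around 7.72. Tumour-free nodes ran from 7.43 to 9.57 around 7.72 and tumour-free spleens from 7.25 to 7.98 around 7.63. Taken gene by gene, the median over cultures was above that over tumours in 62 of 63 members, and above those over spleens and draining nodes in all 63. The median over tumours was above that over spleens in 60 members and above that over nodes in 60. In bulk tissue, fewer cells of a type and less RNA per cell cannot be told apart.

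**Figure D1:**
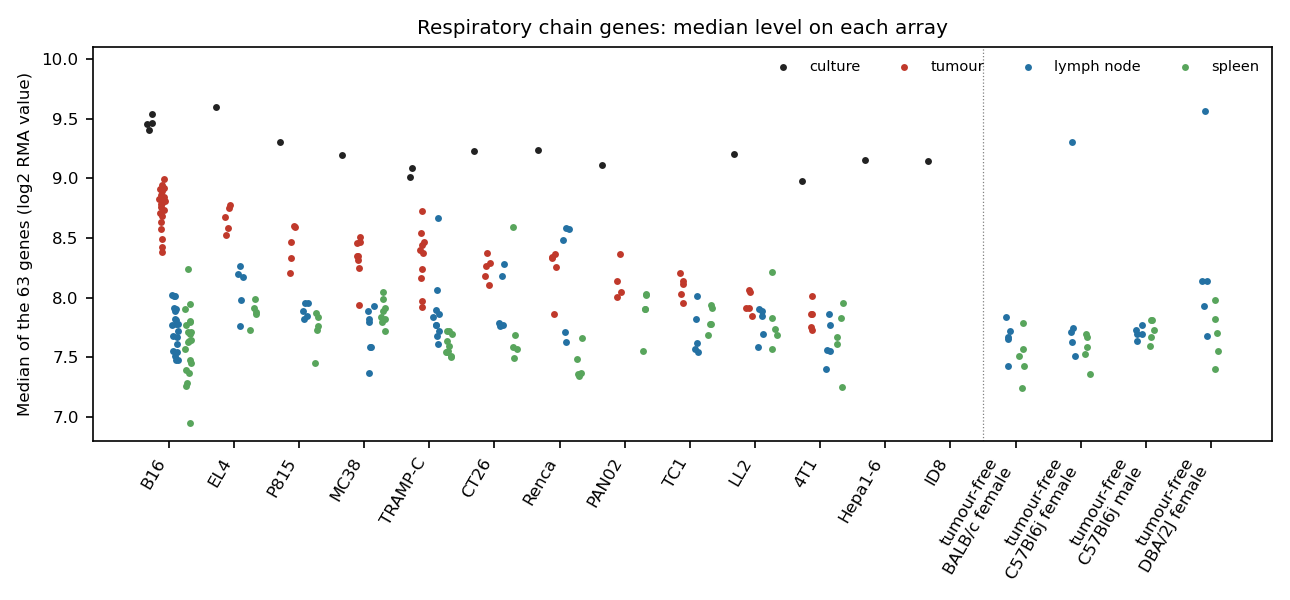
Median of the 63 respiratory chain genes on each array (vertical axis, log2 RMA value), for cultures, tumours, lymph nodes and spleens of each tumour family and, right of the dotted line, of mice without tumours; each point is 1 array. Cultures lie at 8.97 to 9.60 and tumours at 7.73 to 9.00, with B16 and EL4 highest and 4T1 lowest among the tumours.

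The families with the highest and the lowest member medians were largely the same in culture and in tumours. The EL4 culture had the highest member median, 9.60, and its tumours averaged 8.66. The 4 B16 cultures averaged 9.46 and the B16 tumours 8.75, the highest tumour level. The 4T1 culture was lowest of all at 8.97, and 4T1 tumours were lowest among tumours at 7.84. Between these lay P815 (9.31 in culture, 8.44 in tumours), Renca (9.24 and 8.23), CT26 (9.23 and 8.24), LL2 (9.20 and 7.96), MC38 (9.19 and 8.33), PAN02 (9.11 and 8.14) and TRAMP-C (9.05 and 8.32). TC1 tumours averaged 8.09, and the Hepa1-6 and ID8 cultures both stood at 9.15.

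The first comparison asked how tumours differ from the same lines in culture. Respiratory chain genes were lower in tumours: 54 of the 63 members were called lower and 0 higher by limma, with the family as the replicate (n = 10). To be called, a gene needed a log2 fold change of at least 0.5 in size and an adjusted p (Benjamini-Hochberg, over all genes tested) under 0.05. Over all genes 34.4% were called lower and 4.99% higher, 39.3% in either direction. The median member log2 fold change was -0.94, against -0.27 over all genes tested, and all 63 were below 0. By complex, the calls were 30 of 31 for complex I, 6 of 6 for its assembly factors, 4 of 4 for complex II, 1 of 2 for its assembly factors, 6 of 8 for complex III and 7 of 12 for complex V.

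These values depend on how the arrays are scaled. The 75th percentile of all gene values was 7.03 to 7.42 in cultures and 6.20 to 6.76 in tumours, so that the stronger genes as a whole read higher in cultures, and the members are strong genes. After quantile normalisation, which gives every array the same distribution, 16 members were called lower and 1, Uqcrb, higher (0.60), 13 of the 63 lay above 0 (7 of them called lower before) and the median was -0.25, against -0.02 over all genes. The split over all genes moved from 686 higher and 4726 lower to 1135 and 1126. After subtraction of each array's median, 46 members were called lower, with a median of -0.79 and an all-gene median of -0.11, and all genes split into 1083 higher and 3553 lower. The 16 that were lower under quantile normalisation too were Ndufa1, Ndufa2, Ndufb7, Ndufb11, Ndufc2, Ndufs6, Ndufs8, Ndufv1, Ndufaf1, Ndufaf2, Ndufaf3, Uqcr10, Uqcr11, Uqcrq, Atp5d and Atp5g2.

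In complex I, Ndufv1 had the lowest fold change. It encodes the flavoprotein at which NADH hands over its electrons (gene identifier 17995, GRCm38.p6 chromosome 19, 4007499 to 4012755). Ndufv1 lay between 8.95 and 9.56 in the 16 cultures, with a median of 9.21, and between 6.39 and 8.67 in the 77 tumours, with a median of 7.51. No tumour reached the lowest culture. The fitted log2 fold change was -1.77 ± 0.11 (SE, adjusted p = 1.51e-07), and it was below 0 in 10 of 10 families, from -2.37 in 4T1 to -1.25 in P815. Ndufs8, an iron-sulfur subunit on the path to ubiquinone, lay between 8.06 and 9.26 in cultures and between 6.10 and 7.81 in tumours (-1.53 ± 0.09, adjusted p = 1.38e-07). Its groups did not overlap either. Ndufb3, an accessory subunit of the membrane arm, was the complex I gene that was not called, with 9.37 to 10.47 in cultures, 8.73 to 10.59 in tumours and a difference of -0.06 ± 0.08 (adjusted p = 0.534).

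Among the assembly factors, Ndufaf1, which helps to build the membrane arm of complex I, lay between 7.98 and 8.80 in cultures and between 5.38 and 7.60 in tumours (-1.62 ± 0.11, adjusted p = 1.94e-07). In complex II, the iron-sulfur subunit Sdhb ran from 8.41 to 9.94 in cultures and from 6.53 to 9.55 in tumours, so that the ranges overlapped, and differed by -1.14. The other subunits differed by -0.98 (Sdhd), -0.75 (Sdha) and -0.72 (Sdhc), and every one of the 4 was below 0 in 10 of 10 families. Under quantile normalisation 0 of these 4 passed, and Sdhc read 0.043.

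In complex III, the small accessory subunits Uqcr11 (8.20 to 8.99 in cultures, 6.18 to 8.44 in tumours, -1.43 ± 0.14, adjusted p = 1.75e-06) and Uqcrq (9.76 to 11.00 and 7.64 to 10.18, -1.39 ± 0.15, adjusted p = 4.74e-06) were among the 6 lowest fold changes of all members. For both, the tumour range reached into the culture range. Uqcrb, another accessory subunit, read 8.51 to 9.62 in cultures and 7.73 to 9.96 in tumours, a difference of -0.08 ± 0.10 (adjusted p = 0.506). It was below 0 in 7 of 10 families.

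Of the 4 complexes, complex V had the lowest share of calls. Atp5d, a subunit of the central stalk that turns inside the catalytic head, lay between 8.13 and 8.81 in cultures and between 6.35 and 7.83 in tumours, without overlap (-1.55 ± 0.10, adjusted p = 1.48e-07). The genes Atp5g1, Atp5g2 and Atp5g3 encode precursors of 1 mature protein, subunit c of the rotating ring. Atp5g1 fell by 1.20 and Atp5g2 by 1.01 on the log2 scale, while Atp5g3 differed by -0.45 ± 0.13, under the minimum of 0.5. Small subunits of the membrane part were close to 0, with -0.22 for Atp5k, -0.19 for Atp5md and -0.04 ± 0.11 for Atp5mpl (adjusted p = 0.797). The 9 members not called were these 4 with Atp5j2 (-0.35), Uqcrh (-0.42, and 0.032 under quantile normalisation), Sdhaf4 (-0.58, adjusted p = 0.0688), Ndufb3 and Uqcrb. The lowest culture was above the highest tumour in 6 of 63 members, namely Ndufb11, Ndufs8, Ndufv1, Ndufaf1, Atp5d and Atp5g1. How many of all genes do so was not counted. The 75th percentile of all gene values did not overlap either, at 7.03 to 7.42 in cultures and 6.20 to 6.76 in tumours.

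**Figure D2:**
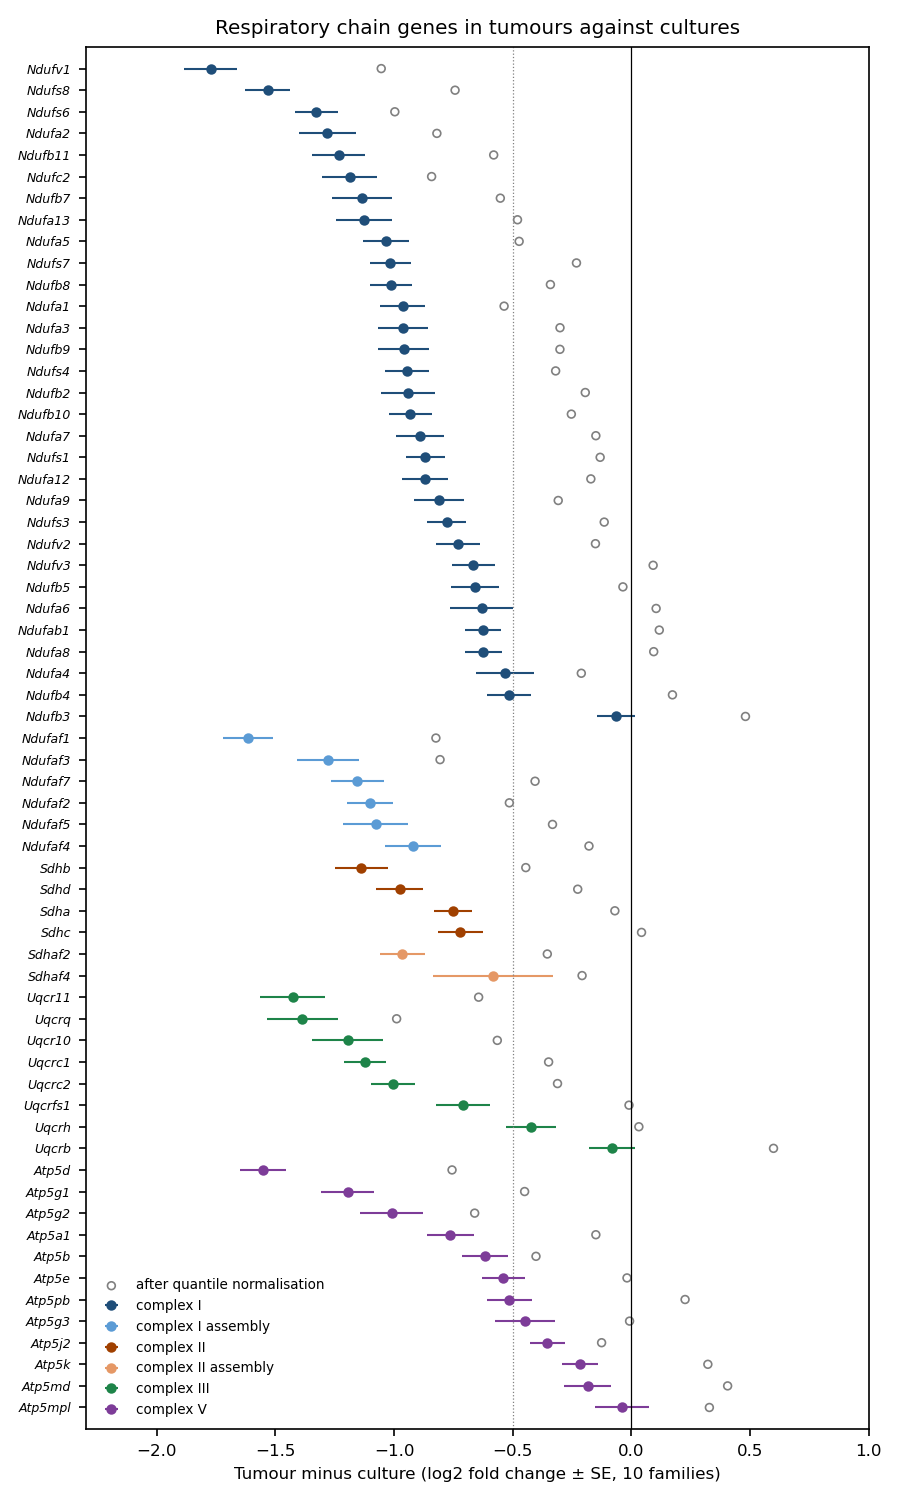
Log2 fold change of each member in tumours against cultures (horizontal axis; filled points with standard errors over 10 families, coloured by complex) and the same after quantile normalisation (hollow points). All 63 filled points lie below 0 and 13 hollow points above it; the dotted line marks -0.5.

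Within each family the member median lay further below 0 than that of all genes. The median of the members' tumour minus culture differences ran from -1.0 in PAN02 to -0.69 in B16, and 57 (4T1) to 63 members were below 0. Of all genes 64.7% to 76.2% were below 0 in these families. Less the all-gene median of the same family it ran from -0.65 in Renca to -0.29 in B16. The 75th percentile of all genes moved by -0.83 in B16, more than the members' -0.69, and by -0.49 in LL2 to -0.81 in PAN02 in the other families, less than their members. Markers of other cell types differed in the same comparison. Of 10 macrophage and monocyte markers 9 were higher in tumours, of 8 fibroblast markers 8, of 7 endothelial markers 4 and of 7 measured T cell markers 4, and 6 of 8 cell cycle genes were lower. The part of these cells in the result was not tested.

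Other mitochondrial gene lists were set beside the members. Their counts are for the deposited scaling, in which 34.4% of all genes were called lower, and are not given after rescaling. All 12 measured enzymes of the citric acid cycle were lower, from Idh3a (-1.41) and Mdh2 (-1.35) to Ogdh (-0.56). Cytochrome c1, Cyc1 (-1.32), and cytochrome c, Cycs (-0.92), were both lower. So were 70 of 73 genes of the mitochondrial ribosome, with Mrpl45 lowest (-1.85), and 16 of 17 of mitochondrial import, with Timm22 lowest (-1.97). Complex IV subunits were mixed, with 6 of 12 lower and Cox8b, a muscle and brown fat isoform, higher (0.83), whereas 10 of 12 of its assembly genes were lower, led by Cox19 (-2.06). Of the regulators of these genes 9 of 12 were lower, among them the mitochondrial transcription factors Tfb2m (-1.36) and Tfam (-1.17). The coactivator Ppargc1a differed by -0.29 ± 0.32 and the receptor Esrra by -0.19 ± 0.16, and neither passed. Of 12 glycolysis genes 9 were lower as well, down to -0.84 for Pfkm. Of 9 hypoxia targets, Car9 was higher (0.56) and Higd1a lower (-0.55).

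The promoters of 4 members with contrasting patterns are shown, because transcription factors that bind near the start site are known to control many respiratory genes together. Ndufv1 and Uqcr11 are the members of complexes I and III with the lowest tumour against culture values, Ndufaf4 varies widely between tumour families, and Atp5g2 is the member that differed between nodes. Each sequence holds the 250 bases before the RefSeq start in GRCm38.p6, 5′ to 3′ on the gene's strand, and capitals mark a motif match.
Ndufv1, chr19:4012756-4013005, minus strand: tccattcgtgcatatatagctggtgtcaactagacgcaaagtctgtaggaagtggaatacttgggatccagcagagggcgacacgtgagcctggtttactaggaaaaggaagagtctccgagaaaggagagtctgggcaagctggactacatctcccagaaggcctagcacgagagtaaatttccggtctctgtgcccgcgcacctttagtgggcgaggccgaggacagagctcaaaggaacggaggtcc
Uqcr11, chr10:80406822-80407071, minus strand: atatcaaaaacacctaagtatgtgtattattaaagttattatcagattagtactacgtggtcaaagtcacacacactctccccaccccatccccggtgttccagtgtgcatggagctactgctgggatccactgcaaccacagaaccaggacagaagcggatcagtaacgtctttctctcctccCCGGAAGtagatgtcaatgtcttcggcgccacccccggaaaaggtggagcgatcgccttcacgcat
Ndufaf4, chr4:24897833-24898082, plus strand: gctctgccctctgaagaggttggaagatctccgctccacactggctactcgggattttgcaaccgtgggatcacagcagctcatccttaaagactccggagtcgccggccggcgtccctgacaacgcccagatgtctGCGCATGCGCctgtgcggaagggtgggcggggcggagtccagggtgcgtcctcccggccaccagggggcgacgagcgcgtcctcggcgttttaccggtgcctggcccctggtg
Atp5g2, chr15:102671048-102671297, minus strand: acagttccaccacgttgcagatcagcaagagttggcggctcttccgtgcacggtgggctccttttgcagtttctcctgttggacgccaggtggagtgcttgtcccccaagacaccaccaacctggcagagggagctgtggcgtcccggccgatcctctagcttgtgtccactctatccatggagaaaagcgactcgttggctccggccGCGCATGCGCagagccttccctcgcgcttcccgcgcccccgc

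Letter patterns of known regulators were searched on both strands of these windows. The NRF1 pattern, GCGCA then any base then GCGC, was found in 9 of the 54 members with a window and in 4.23% of all genes, the ETS pattern CCGGAAG in 8 of 54 and 7.83%, and the ERR pattern AAGGTCA in 3 of 54 and 4.70%. The CRE pattern TGACGTCA was found in 2 of 54 and 1.77%, and the YY1 pattern AAGATGGCG in 0 of 54 and 0.71%. Ndufaf4 and Atp5g2 hold the NRF1 letters, starting at -113 and -42 from the transcript start, and Uqcr11 holds the ETS letters at -66. Ndufv1 holds none of them, although it had the lowest fold change. Sdhd holds both the NRF1 and the ETS letters. These are matches of letters in a window, not sites of binding.

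The next comparison set tumours beside the spleens of the same mice. In tumours 31 of 63 members were higher and 0 lower (limma on group means averaged over 11 families, adjusted over all genes). Of all genes 19.0% were called higher and 7.96% lower, 27.0% in all. The standard errors and p-values here measure the spread between mice within a model and tissue, not the spread between families. The median log2 fold change was 0.46, against 0.11 over all genes. The calls were 18 of 31 in complex I, 4 of 6 of its assembly factors, 1 of 4 in complex II, 1 of 2 of its assembly factors, 3 of 8 in complex III and 4 of 12 in complex V. Under quantile normalisation 11 of the 63 were called, with a median of 0.18. The share of all genes called under that scaling is not given, so an excess of members there is not shown.

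Uqcrq had the largest difference from spleen. It ran from 7.64 to 10.18 in tumours with a median of 8.99 and from 6.35 to 9.11 in spleens with a median of 7.53 (1.25 ± 0.06, adjusted p = 7.27e-45). Ndufaf2, an assembly factor related in sequence to the subunit Ndufa12, ran from 7.80 to 9.32 and from 6.66 to 8.47 (1.21 ± 0.05, adjusted p = 2.12e-47). Both overlapped between the tissues, and the highest spleen value of each was in CT26 spleen 27. Sdhb followed at 1.07 ± 0.06, then the accessory subunits Ndufb9 (0.94), Ndufb2 (0.92) and Atp5md (0.92). The subunit c genes parted, with 0.74 for Atp5g2, 0.45 for Atp5g3 and -0.12 for Atp5g1, of which Atp5g2 passed. Ndufa4 was higher by 0.76. Sdhaf2, which helps to attach flavin to Sdha, stood at -0.19 and Atp5mpl at 0.08, and neither passed.

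Compared mouse by mouse, the member median was higher in the tumour than in the spleen of the same animal in every mouse of 8 families, among them 20 of 20 B16 mice with a median difference of 1.18. In 4T1, CT26 and LL2 it was higher in 4 of 5 mice. The CT26 exception was the mouse of CT26 spleen 27, an array that read 8.59 beside 7.49 to 7.69 in its group. The smallest median differences were 0.15 in LL2, 0.17 in PAN02 and 0.18 in 4T1. Spleens hold other cells: B cell (6 of 6), T cell (7 of 7) and erythroid markers (6 of 6) were lower in tumours and fibroblast markers (8 of 8) higher, and their part in the result was not tested. In the same comparison 11 of 12 glycolysis genes were higher (Tpi1 2.43, Pgk1 1.99) and 9 of 9 hypoxia targets (Bnip3 2.35, Egln3 2.22). Of the carriers Slc25a4, which exchanges ATP and ADP, was higher by 1.71, and of the assembly genes Uqcc2 by 1.55.

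Against the draining nodes of the same mice, tumours were higher in 21 members and lower in 0 (group means averaged over 10 families). Of all genes 16.5% were called higher and 7.18% lower, 23.7% in all. Here too the p-values measure the spread between mice within a model and tissue. The median was 0.42 against 0.10 over all genes. Without the nodes low in B cell markers 27 members were called, without those high in Ucp1 22, and without either 29. Under quantile normalisation the count was 6, and after subtraction of array medians 12. The shares of all genes called under these scalings are not given, so an excess of members there is not shown. Ndufaf2 had the largest difference, at 7.80 to 9.32 in tumours and 6.53 to 9.14 in nodes with medians of 8.74 and 7.32 (1.17 ± 0.06, adjusted p = 3.5e-38). Uqcrq (0.97), Ndufb9 (0.88), Sdhb (0.81), Ndufa2 (0.75) and Ndufa5 (0.74) completed the 6 highest. Without the 9 arrays Ndufaf2 ran from 6.53 to 8.23 in draining nodes and differed by 1.32, Uqcrq by 1.16, Ndufb9 by 1.08, Sdhb and Ndufa2 by 0.94 each and Ndufa5 by 0.84. The highest node value of Ndufaf2, 9.14, was thus in an array that stands apart. The subunit c genes differed by 0.50 for Atp5g2, 0.30 for Atp5g3 and -0.14 for Atp5g1, and without the 9 arrays by 0.60, 0.33 and -0.15. These tumours serve in both comparisons, so they are not independent: 20 members were called against both organs.

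Among the 15 tumour models, 42 of 63 members differed (F test in limma over 77 tumours, range of group means of at least 1), where 53.1% of all genes did. The median range was 1.22, against 1.07 over all genes. By complex the calls were 23 of 31 for complex I, 5 of 6 for its assembly factors, 2 of 4 for complex II, 1 of 2 for its assembly factors, 8 of 8 for complex III and 3 of 12 for complex V. Complex V had the lowest share, and Atp5g1 had the narrowest range, 0.52.

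The widest range was that of Sdhb (gene identifier 67680, chromosome 4, 140961271 to 140979198), 2.30 from B16F0 ECACC tumours at 9.50 to TRAMPC2 tumours at 7.20 (adjusted p = 5.62e-23). B16 tumours ran from 8.46 to 9.55 around 9.39 and TRAMP-C tumours from 6.53 to 7.96 around 7.22. Every B16 tumour lay above every TRAMP-C tumour. In culture Sdhb read 9.66 to 9.94 in the B16 lines and 8.68 and 8.85 in TRAMPC2 and TRAMPC1.

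Ndufb10, an accessory subunit of the membrane arm of complex I (identifier 68342, chromosome 17, 24722060 to 24724423), spanned 1.99, from 8.93 in EL4 to 6.94 in 4T1 (adjusted p = 3.62e-17). The 4T1 tumours ran from 6.67 to 7.43, and the lowest tumour of any other family stood at 7.73. The 4T1 culture too had the lowest Ndufb10 value among cultures, 8.02, next to 8.54 in Hepa1-6. In tumour-free spleens of BALB/c mice, the host of 4T1, Ndufb10 averaged 7.41, against 7.79 to 8.07 in the other hosts, and CT26 and Renca tumours of the same host ran from 7.73 to 8.31.

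Ndufaf4, a complex I assembly factor that works with Ndufaf3, spanned 2.07, from 8.55 to 9.21 in EL4 tumours down to 6.55 to 7.09 in 4T1 tumours (adjusted p = 6e-16). Ndufb2 spanned 2.07 as well, highest in B16F0 ECACC and lowest in 4T1. In complex III, Uqcr10 spanned 1.93, from 9.49 in B16F0 ECACC to 7.57 in Renca. Uqcrq spanned 1.89, with 9.70 to 9.92 in EL4 tumours, 8.89 to 10.18 in B16 tumours and 7.64 to 8.37 in LL2 tumours. All 6 passed the F test, which sets the differences between models against the spread within them.

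**Figure D3:**
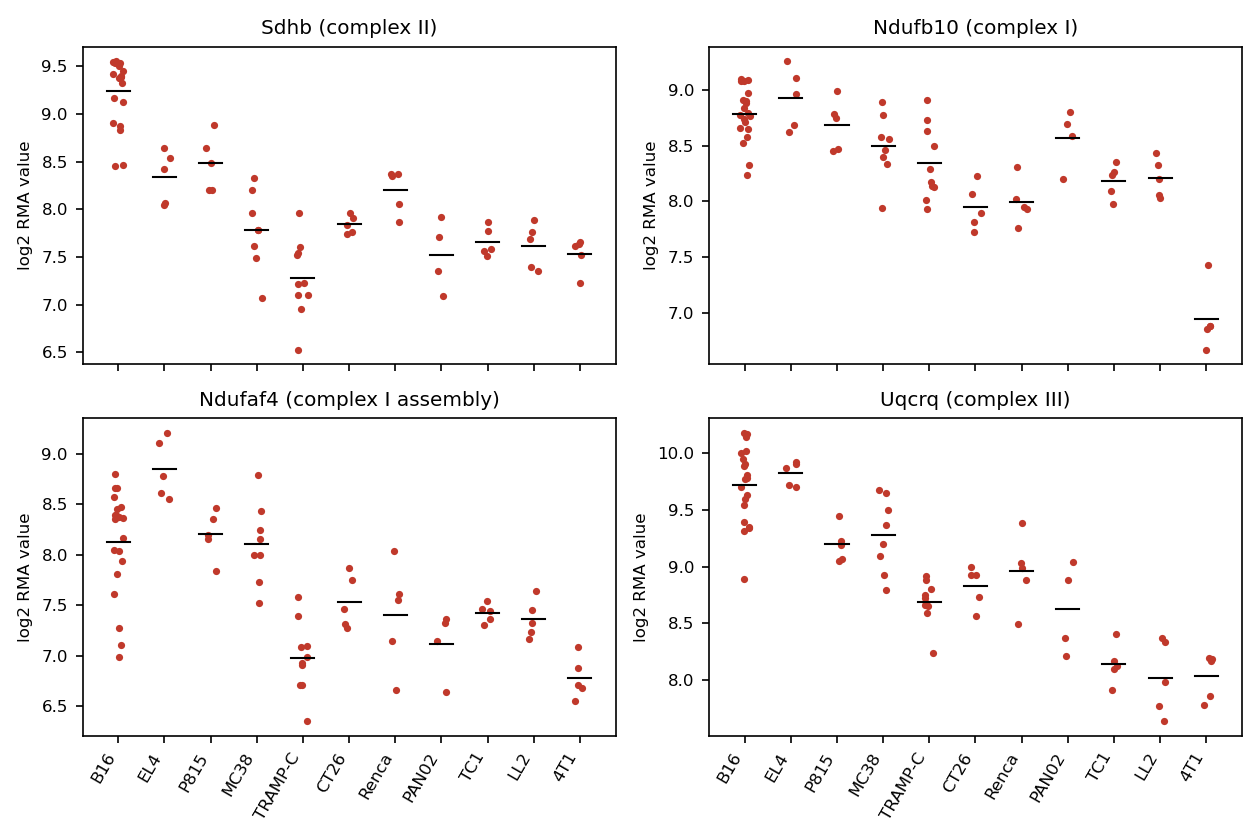
Values of Sdhb, Ndufb10, Ndufaf4 and Uqcrq (vertical axes, log2 RMA value) in each of the 77 tumours by family; lines mark family means. Sdhb is highest in B16 and lowest in TRAMP-C, all 5 4T1 tumours lie at 7.43 or lower for Ndufb10, and EL4 stands highest for Ndufaf4.

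Each family was then set against the mean of the other 10. B16 stood out by count, with 29 members higher and 0 lower, where 9.44% of all genes were called higher and 11.9% lower, 21.3% in all. The members with the largest differences were Sdhb (1.41 ± 0.08, adjusted p = 1.33e-25), Uqcr10 (1.16 ± 0.08) and Ndufa5, an accessory subunit of the matrix arm (1.09 ± 0.07). They included 17 of 31 complex I genes and 5 of 8 of complex III but 1 of 12 of complex V. Cycs (1.12) and Cyc1 (0.79) were higher too, and 9 of 12 glycolysis genes. In B16 tumours macrophage markers were lower for 10 of 10 (median -1.91) and fibroblast markers for 8 of 8 (median -1.73). Whether these tumours held fewer such cells, and the part of this in the result, was not tested. Under quantile normalisation 16 members were called, and the share of all genes under that scaling is not given. The coactivator Ppargc1a, a known activator of respiratory genes, read 7.74 to 9.70 in B16 tumours, 6.29 to 7.36 in EL4 tumours and 2.66 to 6.47 in the other families. Against the other families it was higher by 4.53 ± 0.10 in B16 and by 2.17 ± 0.18 in EL4. In cultures Ppargc1a was also high in some other lines, with 7.00 to 8.21 in B16, 7.16 in CT26, 7.04 in Hepa1-6, 6.88 in Renca and 6.16 in EL4.

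EL4 had 17 members higher and 1 lower (10.2% of all genes higher and 11.4% lower, 21.6% in all). Ndufaf4 (1.35 ± 0.16), Uqcrq (1.08 ± 0.13) and Ndufb8 (0.75 ± 0.11) led, and the one lower was the assembly factor Ndufaf7. P815 had 13 higher and 1 lower (13.8% and 8.0% of all genes, 21.8% in all), led by Ndufs1, the large iron-sulfur subunit of complex I (1.02), and Ndufb7 (0.94), with Uqcrb lower (-0.90). Keratinocyte markers were higher in P815 tumours for 6 of 6, and without the tumours high in other tissues' markers 7 members were called. Uqcrb read 7.84 to 8.48 in P815 tumours. In tumour-free DBA/2J spleens, the host strain of P815, Uqcrb averaged 8.45, against 7.90 to 8.85 in the other hosts.

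MC38 had 5 members higher and 0 lower (11.3% and 7.16% of all genes, 18.5% in all). The share of members called higher was thus under that of all genes. Of these 5, 4 were complex I assembly factors: Ndufaf5 (0.94), Ndufaf7 (0.65), Ndufaf2 (0.60) and Ndufaf4. Ndufaf5 is known to hydroxylate the subunit Ndufs7. The other called member was Ndufa13. Of the 31 complex I subunit genes 1 was thus higher there, beside 4 of the 6 assembly factors. The contrast between subunits and assembly factors was not tested.

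At the other end, 4T1 had 18 members lower and 0 higher (10.3% of all genes lower and 5.24% higher, 15.6% in all), with Ndufb10 (-1.47 ± 0.12, adjusted p = 4.16e-16), Ndufb2 (-1.20 ± 0.20) and Ndufaf1 (-1.01 ± 0.15) lowest. Of complex V 0 of 12 passed. Cycs (-1.16) and Cyc1 (-0.97) were lower as well, and macrophage markers were higher for 4 of 10. LL2 had 11 lower and 0 higher (5.88% and 7.14% of all genes, 13.0% in all), led by Ndufb7 (-0.99), Ndufa2 (-0.96) and Uqcrq (-0.91). The share called lower was under that of all genes in PAN02 and close to it in TC1. PAN02 had 7 lower, or 11.1%, and 0 higher (13.9% and 6.85% of all genes, 20.8% in all), led by Ndufs1 (-0.81), Ndufa4 (-0.72) and Ndufa9 (-0.71). Without the 3 PAN02 tumours high in pancreatic or muscle markers, which leaves 1 that is taken to vary like the tumours of other models, the PAN02 count was 2, and without PAN02 tumour 6 alone it was 15. TC1 had 5 lower, or 7.94%, and 0 higher (6.97% and 9.68% of all genes, 16.6% in all), led by Ndufs6 (-0.90), Uqcrq (-0.78) and Ndufb9 (-0.66), and 8 without TC1 tumour 22.

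The remaining families were divided. TRAMP-C had 2 higher and 6 lower (8.78% and 5.79% of all genes, 14.6% in all), with Ndufa2 at 0.86, Ndufs1 at -0.89 and Sdhb at -0.75. Of the 10 TRAMP-C tumours 6 were high in muscle or keratinocyte markers, and without the tumours high in other tissues' markers 11 members were called. Renca had 3 higher and 5 lower (9.18% and 6.87%, 16.1% in all), with Ndufb4 at 0.74, Uqcr10 at -0.76 and Uqcrh, the hinge protein of complex III, at -0.83. CT26 had 2 higher and 2 lower (6.97% and 6.75%, 13.7% in all), with Ndufa2 at 0.87, Ndufa4 at -0.59 and Ndufa1, which is X-linked, at 0.51, and the count was 2 without 4T1 tumour 36, EL4 tumour 13 or PAN02 tumour 1. Ndufa2, an accessory subunit of the matrix arm, ran from 9.44 to 9.76 in CT26, from 9.30 to 9.76 in TRAMP-C and from 7.55 to 8.58 in LL2 tumours. The order of families thus differed from member to member. Over the 15 model means the median correlation between pairs of members was 0.48, with 0.52 within a complex and 0.46 between complexes, where all points share arrays and normalisation.

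**Figure D4:**
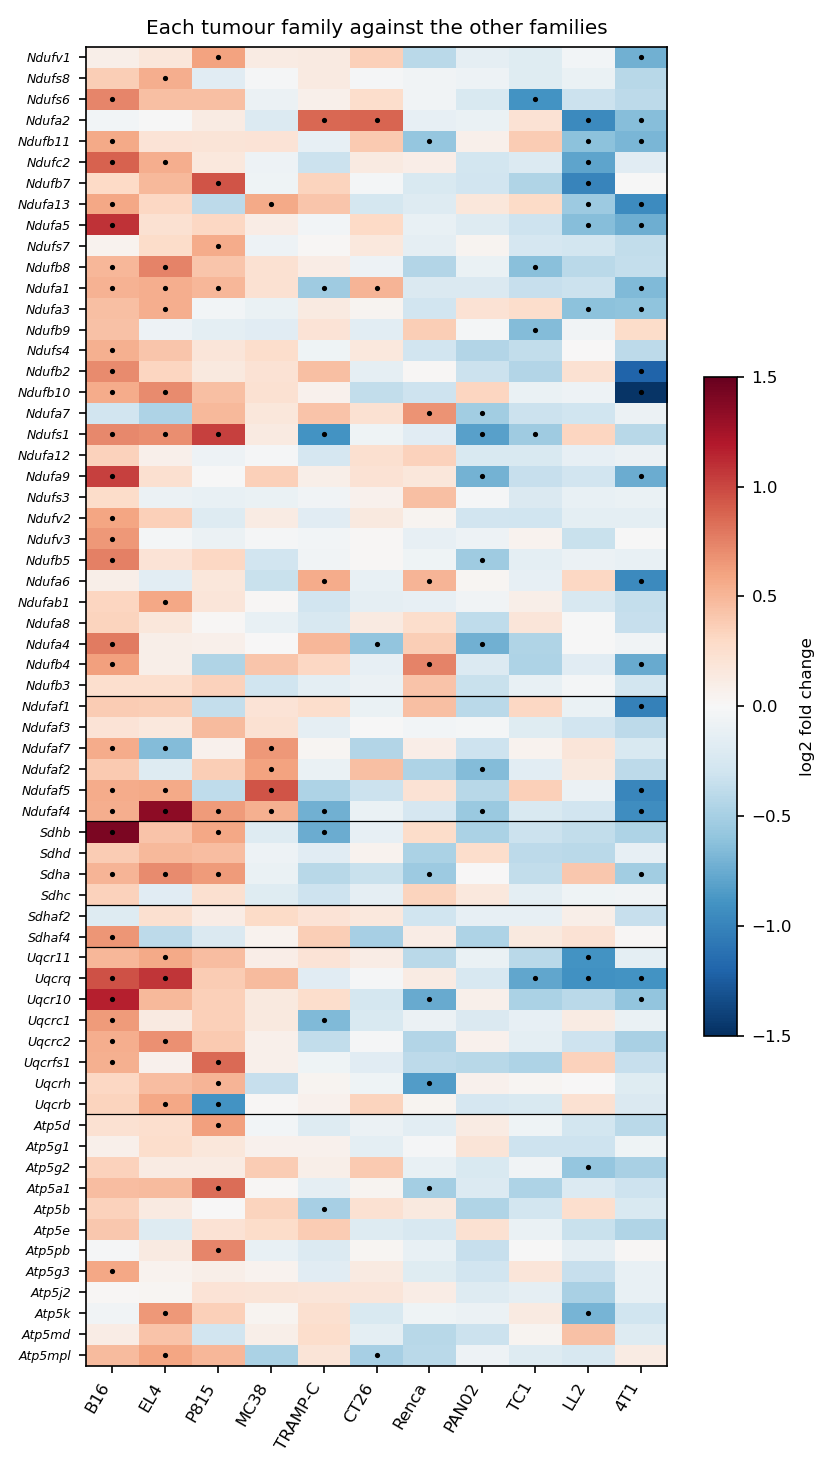
Log2 fold change of each of the 63 members (rows, ordered by complex) in each tumour family against the mean of the other families (columns); red is higher, blue lower, and a black dot marks a called difference. Of 127 calls, 29 are in B16 and all higher, and 18 are in 4T1 and all lower.

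In lymph nodes, the question was whether a draining node differs from a node of a tumour-free mouse of the same strain and sex. Of the 63 members 1 was called, Atp5g2 (2.75% of all genes higher and 0.698% lower, 3.45% in all). An unadjusted p under 0.05 in limma was reached by 9 members, and the share of all genes that reached it is not given. The member median was -0.01, against 0.03 over all genes, and 0.11 without the 9 arrays. Atp5g2 read 7.96 to 9.97 around 8.87 in draining nodes and 7.69 to 9.82 around 8.68 in tumour-free nodes (7.96 to 9.57 and 7.69 to 9.34 without the 9 arrays), so the groups overlapped, and the fitted difference was 0.54 ± 0.09 (adjusted p = 1.31e-05). The difference was under the minimum of 0.5 without the nodes low in B cell markers (0.49), so that 0 members were called, and likewise without BALB/c tumour-free node 10 or C57Bl6j female tumour-free node 1. Tumour-free values of Atp5g2 ran from 7.69 to 8.34 in C57Bl6j females and from 7.95 to 8.84 in BALB/c. They ran from 8.44 to 9.06 in C57Bl6j males and from 8.79 to 9.82 in DBA/2J. The C57Bl6j females were the controls of B16, LL2, MC38, EL4 and TC1. Cell cycle genes were higher in draining nodes for 8 of 8, and brown fat markers lower for 3 of 5.

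The highest member medians among nodes were those of the 3 arrays high in Ucp1. They were DBA/2J tumour-free node 5 (9.57, with Ucp1 at 7.72), C57Bl6j female tumour-free node 5 (9.30, with Ucp1 at 10.55) and TRAMPC1 node 28 (8.67, with Ucp1 at 10.58). The 83 usual nodes ran from 7.37 to 8.26.

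**Figure D5:**
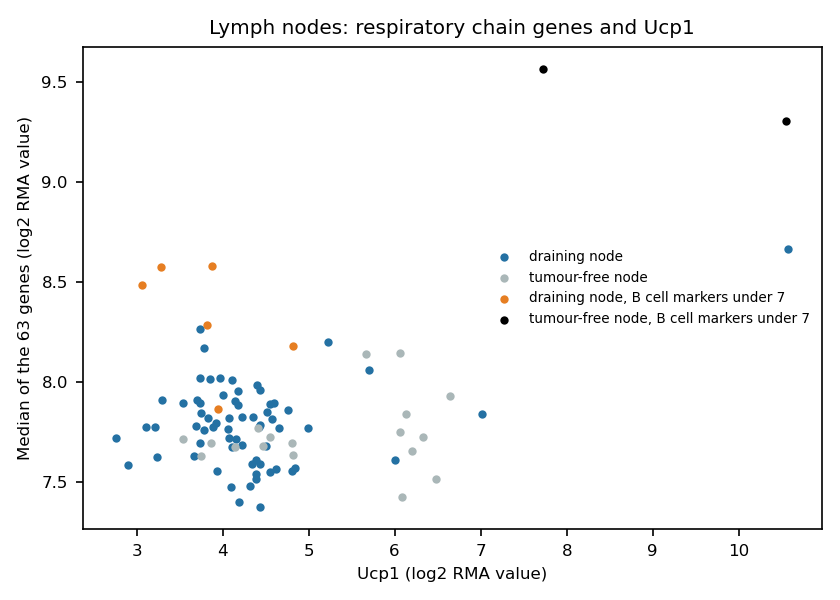
Median of the 63 members (vertical axis) against Ucp1 (horizontal axis, both log2 RMA values) in each of the 92 lymph nodes, coloured by whether the node drained a tumour and whether its B cell markers averaged under 7. The 3 nodes with Ucp1 above 7.5 have member medians of 8.67 to 9.57.

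In spleens of tumour-bearing against tumour-free mice, 0 members were called by limma (1.87% of all genes higher and 0.128% lower, 2.0% in all), and 19 had an unadjusted p under 0.05. The median was 0.15, against 0.01 over all genes, and 60 of 63 were above 0. Without a minimum fold 5 passed. The shares of all genes above 0, under that unadjusted p or without a minimum fold are not given here. Erythroid markers were higher for 6 of 6 and cell cycle genes for 5 of 8 in the same spleens, and their part was not tested.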

How the data were processed

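RNA from cultured cells, tumours, draining lymph nodes and spleens was amplified (NuGEN WT-Ovation Pico) and hybridised to Affymetrix mouse exon arrays, per the labels' protocols. The authors deposited log2 values per probe set, normalised with RMA per the submitters' processing notes. The sources used here do not give its version or the genome build.

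Of 17831 probe sets, 15620 named 1 gene, 1370 named several and 841 none. Where several sets named 1 gene (375 genes, among them 4 members) the set with the highest mean was used, which left 15224 genes. Coordinates and promoters came from RefSeq (GRCm38.p6), where all 63 members matched. A gene was tested if it exceeded 4.37, the 25th percentile of all values, on at least 4 arrays of a comparison, and all 63 members did.

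Tests used limma 3.58.1 (R 4.3.3) on all tested genes, with Benjamini-Hochberg adjustment over them. Tumours and cultures were compared over 10 family differences, because a line has 1 culture. The other comparisons used group means averaged over families. Among models, group means had to span at least 1 for a call. The organs of 1 mouse carry 1 animal number in the labels, which pairs them, and the fit with the mouse as a block is an alternative. Other alternatives were the scaling of arrays, the low-value filter, the fold minimum, the mean of probe sets and leaving out arrays or families in turn. Leaving out arrays that stand apart was added after seeing the data. No array pair correlated above 0.982, so none was counted as a duplicate. The fits were tested on simulated data. The number of arrays limits the precision. Between tumours and cultures the p-values measure the spread between families. In the other comparisons they measure the spread between mice within a group.

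The members and lists were chosen with earlier results of these data known. Named were the called members with the 6 highest and 6 lowest fold changes in a comparison, the 6 widest ranges among models, the 3 called members furthest from 0 in a family, the 2 highest and 2 lowest called genes of a pathway list, and the subunit c genes with Ndufa4. Ndufa4l2 has no probe set of its own. Members named beyond that were chosen after their values were seen, as were Ppargc1a, Esrra and the genes near 0.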

Additional observations from a re-analysis of the deposited data

Results flagged for a closer look

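Of 52 groups of 4 to 10 arrays, 8 held an array whose median of the 63 members stood far from the rest of its group. Chance alone flags about 1 in 20 groups. Of these arrays, 3 were nodes above their group, the same 3 that are high in Ucp1. DBA/2J tumour-free node 5 read 9.57 beside 7.68 to 8.14, C57Bl6j female tumour-free node 5 read 9.30 beside 7.52 to 7.75, and TRAMPC1 node 28 read 8.67 beside 7.61 to 7.86. CT26 spleen 27 was also high, at 8.59 beside 7.49 to 7.69. The other 4 were low. B16F10 ATCC tumour 9 read 8.38 beside 8.69 to 8.80, MC38 tumour 59 read 7.94 beside 8.25 to 8.51, Renca tumour 23 read 7.87 beside 8.25 to 8.37, and PAN02 spleen 5 read 7.55 beside 7.91 to 8.03. On these 4 the 75th percentile of all genes was also the lowest of its group, from 6.16 in PAN02 spleen 5 to 6.28 in Renca tumour 23.

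Ndufb10, the complex I subunit low in 4T1, went opposite ways in different families against the spleen of the same mouse. In all 5 P815 mice it was higher in the tumour, with a median difference of 0.74. In all 5 4T1 mice it was lower, from -1.31 to -0.21 with a median of -0.60. The difference between these families was not tested.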

How the results depend on the processing

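The counts of called members moved with the scaling and with the fold minimum. Against cultures the all-gene counts after rescaling are given above. For the other alternatives the share of all genes called is not given. Quantile normalisation gave 17 against cultures, 11 against spleens, 6 against nodes and 0 between nodes, with member medians of -0.25, 0.18 and 0.14 for the first 3, and subtraction of array medians gave 12 against nodes and a median of -0.79 against cultures. A fold minimum of 1 (a range of 2 among models) left 25, 3, 1 and 0 in those comparisons, 3 among models and 10 over all families. Without a minimum the counts were 59 against spleens, 58 against nodes, 3 between nodes, 5 between spleens and 291 over all families, in place of 127. Between nodes the count was 0 without the nodes low in B cell markers, alone or with those high in Ucp1.

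Some members changed sign. Against cultures, Atp5mpl read 0.11, Uqcrb 0.072 and Ndufb3 0.089 with array medians subtracted. Under quantile normalisation they read 0.33, 0.60 and 0.48, with Atp5md at 0.41 and Atp5k at 0.32. Called members turned too: Ndufa6 from -0.63 to 0.10, Ndufab1 from -0.63 to 0.12, Ndufa8 from -0.62 to 0.094, Ndufv3 from -0.67 to 0.092, Ndufb4 from -0.52 to 0.17, Atp5pb from -0.51 to 0.23 and Sdhc from -0.72 to 0.043. With the mean of probe sets Atp5md was 0.071 against cultures, and Atp5g1 was 0.10 against spleens and 0.085 against nodes. Between nodes under quantile normalisation Atp5g1 was -0.051 and Atp5g3 -0.044. Leaving out families in turn moved Atp5mpl from -0.09 to 0.01 (0.0035 without CT26, 0.0044 without MC38, 0.011 without Renca). The causes were not tested.

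Leaving out 1 array or family at a time gave 52 to 55 calls against cultures, 29 to 31 against spleens, 18 to 23 against nodes, 40 to 43 among models, 122 to 135 over all families, 0 to 1 between nodes and 0 to 0 between spleens. With the replicate block (77 pairs of tumour and spleen, 72 of tumour and node) 29 and 21 members were called, and the pairing moved no count by over 1.5 times. The number of mice, 5 in most groups, and the single culture of each line limit what these counts can show.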

Other observations

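Over the 68 group means, the genes outside the members whose values ran most alike to the mean of the members were Micos13, Gtf2h5, Poldip2 and Got2 (Pearson r of 0.98 each), followed by Psmc4, Idh3a, Cyc1, Etfa, Eif2b1 and Pmpcb (0.97 each). Micos13 belongs to the complex that shapes the cristae, Got2 and Idh3a are enzymes of the mitochondrial matrix, and Psmc4 is a subunit of the proteasome. The members themselves had a median r of 0.93, against 0.37 for other genes. Each member is part of the mean it is set against, which raises its r. The lowest were Atp5mpl (0.54), Sdhaf2 (0.62) and Uqcrb (0.66). All points share arrays and normalisation, so these values are a description.

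Members with 2 probe sets mostly gave like values in tumours against cultures. The set used and the other read -0.52 and -0.52 for Ndufb4, -1.20 and -1.59 for Atp5g1, and -1.01 and -1.02 for Atp5g2. For Atp5md they differed in sign, -0.19 and 0.33. The 13 probe sets that name a member beside another gene were all below 0 in tumours against cultures, from -1.13 to -0.18 with a median of -0.53.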
